A study of Mus musculus with 64 samples.

Results

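Epdr1, Trim35, Mafg, Mllt11, Jak1 and Creb5 are 6 of the 16913 genes in a count table of mouse hearts that carry, or do not carry, a mutant cardiac troponin T. They were chosen by their higher level in transgenic (TG) than in non-transgenic (nTG) hearts in earlier results of these same data. The TG minus nTG values of the 6 genes are therefore given as a description with no test. Differences by training or sex and the spread between mice of 1 group were not used for the choice, and tests are given for those. The TG and nTG levels that entered the choice also enter the training and sex tests, which are therefore not fully independent of it.

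The mice were C57BL/6J. TG mice carried the cTnT-delta160E form of troponin T, a model of hypertrophic cardiomyopathy, and nTG mice did not. Trained mice ran high intensity interval training (HIIT) on a treadmill for 6 weeks, on 3 days per week in sessions of 31 min, and sedentary mice did not exercise. The nTG males numbered 7 sedentary and 8 trained mice and the TG males 9 and 8, while the nTG females numbered 8 and 10 and the TG females 8 and 6. These are the numbers by sample label, and the design text of the series gives 7 to 9 for each group. The age of the mice, the promoter of the transgene and the part of the heart sampled are not given in the sources used here. Total RNA was sequenced after ribosomal RNA depletion, and levels are CPM, a gene's count as a share of its library in parts per 1e6, on library sizes scaled by edgeR's trimmed mean of M values (TMM).

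Gene columns could not be used under their own names. By name, 32 of 64 columns had sex-linked expression that contradicted the labelled sex, 30 had a Tnnt2 level that contradicted the labelled genotype, and 45 had either. Each column of the deposited lncRNA table was therefore given the gene column that correlated best with it over 389 autosomal transcripts held by both tables. All 64 pairs were best in both directions, with r of 0.690 to 0.835 for the best column and at most 0.410 for the next, and 1 pair had the same name. With this join, 0 libraries contradicted the sex and 0 the genotype, although neither Tnnt2 nor sex-linked genes entered it. The join takes the names in the lncRNA table as correct, and the training labels have no such check. Results are for joined columns, and those by name are given with the processing. Gene totals were 34.6 to 67.1 megacounts (1e6 counts), with a median of 48.002. TG sedentary male replicate 5 stood apart in blood genes, with a sum of 4653 CPM over 8 genes against at most 1204 CPM in any other library.

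Cardiac troponin T, encoded by Tnnt2, ties the troponin complex to the thin filament and takes part in the calcium switch of contraction. The 6 genes act in different systems. Jak1 is a tyrosine kinase bound to cytokine receptors, which phosphorylates STAT transcription factors after interferons or cytokines of the interleukin 6 family bind. Mafg is a small MAF protein, which has no activation domain of its own and pairs with cap'n'collar (CNC) factors such as Nfe2l2 at antioxidant response elements (ARE). Creb5 is a leucine zipper factor of the CREB and ATF superfamily that binds the cAMP response element (CRE). Mllt11 was found as a fusion partner in leukaemia and is described as a cofactor of the T-cell factor Tcf7. Trim35 is a tripartite motif protein with a RING domain, the signature of many ubiquitin ligases. Epdr1 is an ependymin-related lysosomal protein that binds lipids and can be secreted.

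In the GENCODE M21 annotation of GRCm38, Jak1 (ENSMUSG00000028530) lies at chr4:101152367-101265282 and Mafg (ENSMUSG00000051510) at chr11:120625117-120633600, both on the minus strand. Creb5 (ENSMUSG00000053007) lies at chr6:53287270-53700376 on the plus strand, and Mllt11 (ENSMUSG00000053192) at chr3:95219135-95232171 on the minus strand. Trim35 (ENSMUSG00000022043) lies at chr14:66297031-66311424 on the plus strand, and Epdr1 (ENSMUSG00000002808) at chr13:19591706-19619927 on the minus strand. Mean counts per library were 9869 for Jak1, 6530 for Trim35, 2860 for Mafg, 1129 for Epdr1, 828 for Creb5 and 388 for Mllt11. Exons of other measured genes overlap those of 3 of the 6. The overlap is 124 bp for Mafg with Sirt7 on the same strand, 111 and 38 bp for Mllt11 with Gm16740 and Cdc42se1 on the opposite strand, and 4 bp for Jak1 with Raver2 on the opposite strand. Whether counting used strand is not given in the sources used here, so reads in those stretches could be split.

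RefSeq promoters of GRCm38.p6, from 250 bases before to 50 bases after a start site, were at hand for Epdr1, Mafg, Mllt11, Jak1 and Creb5, which has 2. They were searched on both strands because Creb5 and Mafg are themselves DNA-binding proteins, with 10 motifs chosen after the sequences had been read. The 3 promoters with the CRE core, TGACGTC, are printed below from 5′ to 3′ on the strand of the gene, with the match in capitals (also the last base of the longer CRE, where the core matches on both strands). They are those of Jak1 at chr4:101265174-101265473, of Creb5 at chr6:53287053-53287352 and of Mafg at chr11:120633498-120633797.
Jak1: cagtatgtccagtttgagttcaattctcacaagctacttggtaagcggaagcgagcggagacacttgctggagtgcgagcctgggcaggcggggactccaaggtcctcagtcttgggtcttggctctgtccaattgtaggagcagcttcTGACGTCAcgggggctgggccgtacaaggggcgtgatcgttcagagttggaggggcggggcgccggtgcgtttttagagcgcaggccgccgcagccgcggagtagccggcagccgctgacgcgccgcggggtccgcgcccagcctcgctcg
Creb5: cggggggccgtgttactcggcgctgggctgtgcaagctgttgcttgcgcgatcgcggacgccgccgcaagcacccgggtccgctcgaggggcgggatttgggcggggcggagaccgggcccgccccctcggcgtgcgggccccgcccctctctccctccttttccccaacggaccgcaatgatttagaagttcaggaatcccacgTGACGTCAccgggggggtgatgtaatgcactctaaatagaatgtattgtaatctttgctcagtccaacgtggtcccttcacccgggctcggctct
Mafg: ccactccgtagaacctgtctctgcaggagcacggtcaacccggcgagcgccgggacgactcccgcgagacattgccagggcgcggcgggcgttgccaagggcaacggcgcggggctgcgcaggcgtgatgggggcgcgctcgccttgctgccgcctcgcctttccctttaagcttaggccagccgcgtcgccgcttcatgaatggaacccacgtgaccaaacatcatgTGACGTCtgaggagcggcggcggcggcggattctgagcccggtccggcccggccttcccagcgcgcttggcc
The match began at position −101 from the start site in Jak1, −45 in Creb5 and −22 in Mafg. The CRE core was found in 3.21% of 32851 promoters of that length. The full CRE, TGACGTCA, which contains the core, was in those of Jak1 and Creb5 and in 1.79% of all, and the half-site TGACG within it was in the same 3 and in 20.8% of all. The E-box CACGTG was in Creb5 and Mafg and in 7.15% of all, and the ARE core TGACNNNGC, named for the element that small MAF proteins bind, was in Mafg and in 12.4% of all. The STAT site TTCNNNGAA was in 0 of the 6 promoters and in 8.3% of all. Of the other 4 motifs, the GC box GGGCGG was in 3 of the 6 promoters and 35.7% of all, the CCAAT box (CCAAT) in 1 and 37.4%, the TEAD site CATTCC in 1 and 14.7%, and the TATA box TATAAA in 0 and 13.6%. A match describes letters only, and no binding was measured.

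Jak1, the cytokine receptor kinase, was the most highly counted of the 6. In sedentary males its lowest, median and highest level was 160.2, 186.2 and 194.2 CPM in nTG and 202.4, 232.4 and 254.6 CPM in TG hearts. In trained males it was 150.4, 170.1 and 184.6 CPM in nTG and 203.4, 243.4 and 259.6 CPM in TG hearts. The TG and nTG libraries did not overlap in either pair of groups. In sedentary females the same values were 165.7, 180.8 and 193.3 CPM in nTG and 206.1, 234.7 and 246.1 CPM in TG hearts, and in trained females 172.0, 178.6 and 190.5 CPM against 193.6, 227.3 and 243.1 CPM. Here too every TG library was above every nTG library of the same sex and training. Over all 64 libraries, 30 of the 31 TG libraries were above the highest of the 33 nTG libraries. The TG minus nTG log2 fold change in males was 0.34 ± 0.05 (SE) when sedentary and 0.49 ± 0.05 when trained, and in females 0.35 ± 0.05 and 0.31 ± 0.05, or 1.295-fold for the mean of the 4. In bulk tissue, a change in the number of cells of a type and a change in RNA per cell cannot be told apart.

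Among the transcriptional regulators, Mafg separated the genotypes most widely. Its lowest, median and highest level was 44.2, 47.3 and 50.9 CPM in nTG and 65.04, 72.0 and 93.4 CPM in TG sedentary males. In trained males it was 44.8, 46.98 and 48.1 CPM against 61.95, 66.3 and 72.5 CPM. Neither pair overlapped, and the trained TG males sat below or in the lower part of the range of the sedentary TG males. In sedentary females Mafg was at 42.4, 45.5 and 56.3 CPM in nTG and 63.6, 70.2 and 79.9 CPM in TG hearts, and in trained females at 44.8, 48.7 and 51.2 CPM against 63.2, 74.5 and 79.6 CPM. All 31 TG libraries lay above all 33 nTG libraries. The log2 fold change in males was 0.65 ± 0.06 when sedentary and 0.50 ± 0.05 when trained, and in females 0.57 ± 0.05 and 0.60 ± 0.06, or 1.49-fold for the mean of the 4. Sirt7, whose exons overlap those of Mafg, was at a log2 fold change of 0.03 ± 0.04 for that mean (edgeR adjusted p 0.536).

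Creb5, the CRE-binding factor, did not separate the genotypes in females. In sedentary males its lowest, median and highest level was 13.5, 14.4 and 16.3 CPM in nTG and 17.3, 19.4 and 24.3 CPM in TG hearts, and in trained males 12.6, 15.1 and 16.9 CPM against 17.4, 19.4 and 24.2 CPM. In both pairs of male groups every TG library was above every nTG library. In sedentary females it was at 12.3, 14.4 and 18.7 CPM in nTG and 13.9, 18.04 and 20.7 CPM in TG hearts, and 3 of the 8 TG libraries were above the highest nTG library. In trained females it was at 12.3, 15.2 and 18.8 CPM against 16.4, 19.5 and 22.4 CPM, with 4 of the 6 TG libraries above the highest nTG library. The log2 fold change was 0.42 ± 0.09 and 0.43 ± 0.08 in sedentary and trained males, and 0.24 ± 0.08 and 0.35 ± 0.09 in sedentary and trained females.

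Mllt11, the Tcf7 cofactor, was the least separated between the genotypes of the 6. In sedentary males its lowest, median and highest level was 6.72, 7.66 and 9.02 CPM in nTG and 8.35, 9.498 and 11.97 CPM in TG hearts, and 7 of 9 TG libraries were above the highest nTG library. In trained males it was at 6.72, 7.78 and 10.2 CPM in nTG and 6.13, 7.96 and 11.7 CPM in TG hearts, so that the TG range contained the nTG range. In sedentary females the values were 5.90, 7.41 and 8.10 CPM against 7.44, 8.56 and 9.53 CPM, and in trained females 4.90, 6.22 and 8.95 CPM against 6.37, 8.24 and 8.89 CPM. The ranges overlapped in all 4 pairs, and 4 of the 31 TG libraries were above all nTG libraries. The log2 fold change in males was 0.37 ± 0.10 when sedentary and 0.09 ± 0.10 when trained, and in females 0.24 ± 0.10 and 0.29 ± 0.10. The mean of the 4 pairs was 0.25 ± 0.05, or 1.19-fold. Cdc42se1, which overlaps Mllt11 on the opposite strand, was at 0.15 ± 0.03 for the mean of the 4 pairs (edgeR adjusted p 2.92e-05), and Gm16740 at −0.01 ± 0.10 (adjusted p 0.973).

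Trim35, the tripartite motif protein, differed between genotypes and was lower in females. Its lowest, median and highest level was 114.8, 119.3 and 128.4 CPM in nTG and 162.2, 169.9 and 185.97 CPM in TG sedentary males. In trained males it was 106.7, 117.6 and 130.9 CPM in nTG and 141.6, 164.1 and 175.8 CPM in TG hearts. No libraries overlapped in these pairs. In sedentary females it was 100.6, 105.9 and 121.6 CPM in nTG and 135.9, 146.1 and 172.8 CPM in TG hearts, and in trained females 103.5, 109.6 and 117.9 CPM against 133.4, 143.4 and 154.3 CPM. All 31 TG libraries lay above all 33 nTG libraries, by a gap from 130.9 to 133.4 CPM between a trained nTG male and a trained TG female. The log2 fold change in males was 0.52 ± 0.04 when sedentary and 0.46 ± 0.04 when trained, and in females 0.48 ± 0.04 and 0.38 ± 0.04.

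Epdr1, the lysosomal protein, had the highest fold change of the 6 in each pair of groups. In sedentary males its lowest, median and highest level was 16.2, 17.1 and 19.8 CPM in nTG and 25.3, 31.3 and 34.8 CPM in TG hearts, and in trained males 14.6, 17.8 and 22.4 CPM against 26.7, 30.3 and 34.1 CPM. In sedentary females it was 14.3, 17.5 and 20.04 CPM in nTG and 26.9, 28.7 and 35.9 CPM in TG hearts, and in trained females 14.4, 15.9 and 18.2 CPM against 25.4, 29.7 and 30.9 CPM. All 31 TG libraries were above all 33 nTG libraries, and the lowest of them, at 25.3 CPM, was TG sedentary male replicate 5. The log2 fold change in males was 0.77 ± 0.07 when sedentary and 0.76 ± 0.07 when trained, and in females 0.79 ± 0.07 and 0.87 ± 0.07, or 1.74-fold for the mean of the 4.

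**Figure D1:**
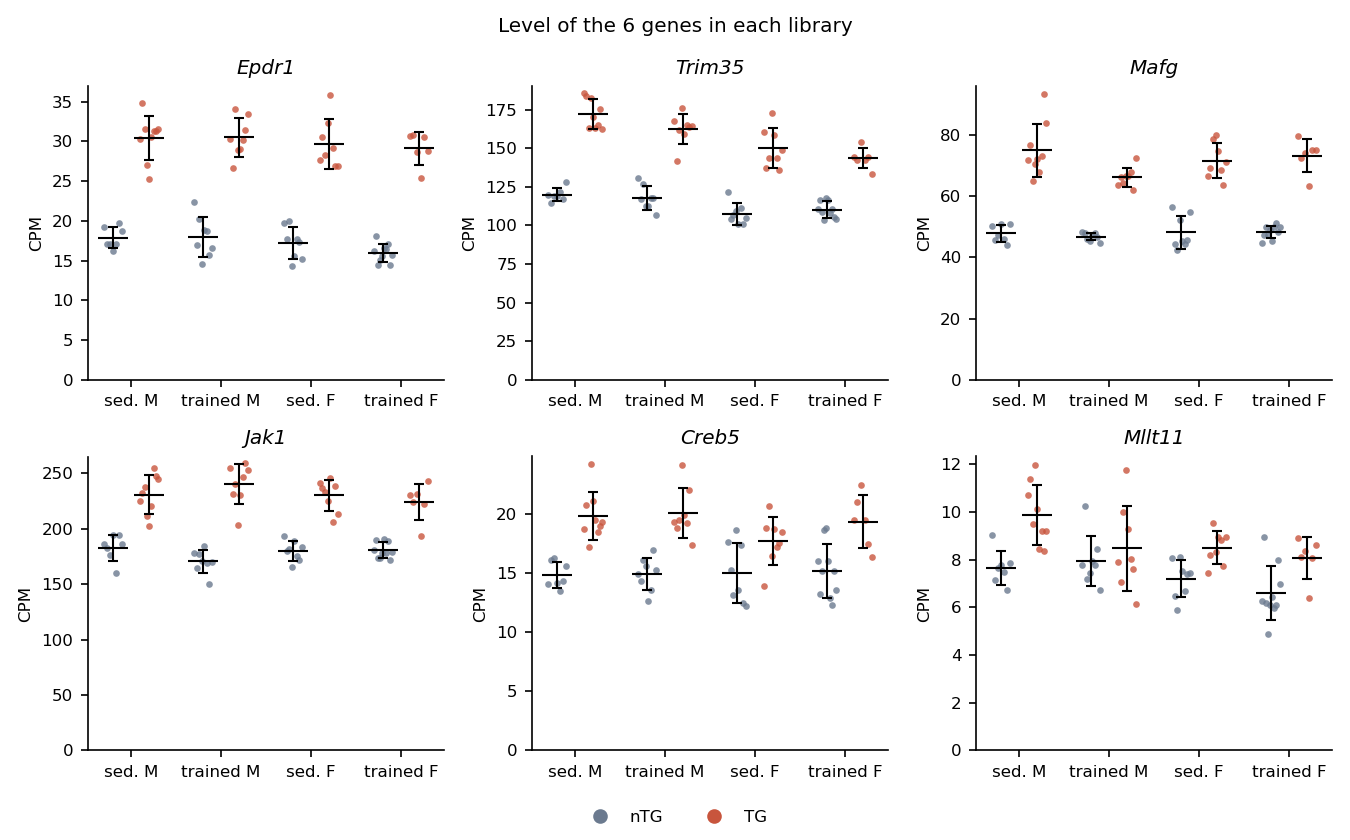
Level of the 6 genes in CPM (vertical axes, from 0) in each of 64 libraries (points), by sex (M, F) and training (sed., sedentary), with the group mean and SD as black bars and nTG in grey beside TG in red. Epdr1, Trim35 and Mafg leave a gap between the genotypes in every pair of groups, and the points of Mllt11 overlap in all 4 pairs.

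Per kilobase of merged exons, Trim35 and Jak1 were the highest of the 6, with means of 25.96 ± 0.93 and 25.3 ± 1.63 CPM per kb (SD, n = 7) in sedentary nTG males. Mafg followed at 8.53 ± 0.50, Epdr1 at 6.53 ± 0.50, Mllt11 at 3.21 ± 0.30 and Creb5 at 0.595 ± 0.044 CPM per kb. The low value of Creb5 rests on 25021 bp of merged exons, the most of the 6. When the 8 groups were ordered by mean CPM, the 4 nTG groups came before the 4 TG groups for each of the 6 genes. For Epdr1, Trim35 and Mafg the step from the highest nTG group to the lowest TG group was the only one between neighbours whose libraries did not overlap. For Jak1, Creb5 and Mllt11 all neighbouring groups in the order overlapped.

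Every TG library was above every nTG library of the pair for 5 of the 6 genes in sedentary males and in trained males, which held for 0.798% and 0.532% of all 16913 genes. In sedentary and in trained females it held for 4 of the 6 genes, and for 0.237% and 0.526% of all genes. Over all 64 libraries it held for Epdr1, Trim35 and Mafg, which are 3 of only 7 genes (0.0414%). Since these differences chose the 6 genes, nothing is read from their share. Ordered by the p of the genotype fit, Epdr1 stood at rank 5 of all genes in sedentary and 3 in trained males and at rank 2 in both pairs of females. In the same order, Trim35 stood at 2, 5, 3 and 10, and Mafg at 3, 9, 4 and 3. Jak1 stood at 47, 4, 14 and 48. Creb5 stood between ranks 266 and 1143, and Mllt11 between 1518 and 9877, so these 2 were not among the leading genes of these fits. Tnnt2, the gene of the transgene's product, was at rank 1 in all 4 pairs, with 2561 to 3589 CPM in nTG and 6538 to 11721 CPM in TG hearts, and counts from the transgene and from the mouse gene cannot be told apart in this table.

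**Figure D2:**
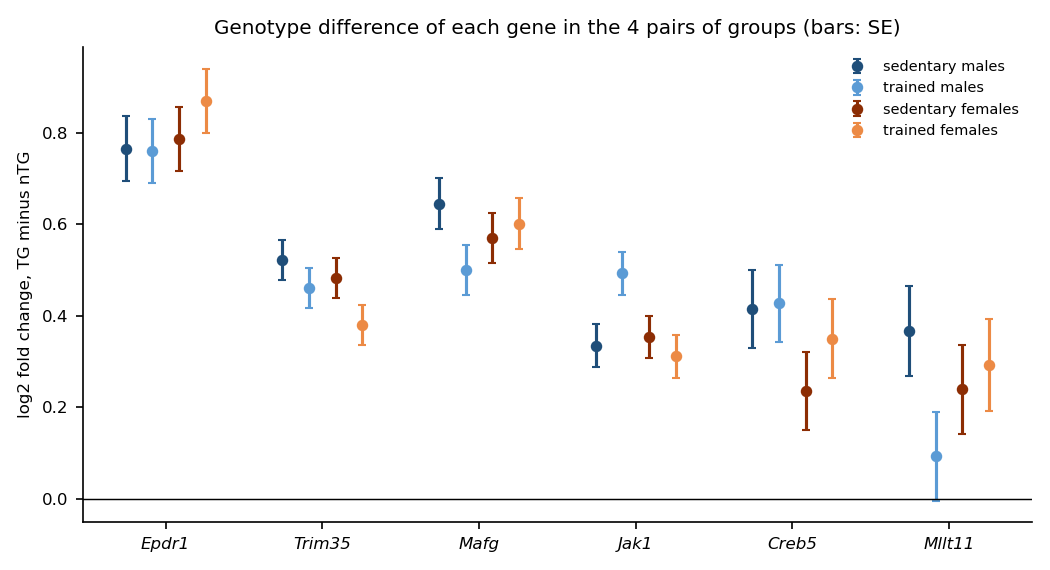
TG minus nTG log2 fold change (points, with SE as bars) of the 6 genes in sedentary and trained males and females, from 1 edgeR fit over 64 libraries. Epdr1 lies between 0.76 and 0.87 in all 4 pairs, and Mllt11 between 0.09 and 0.37.

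The genotype difference was also set side by side in trained and sedentary mice. Its change (trained minus sedentary, log2) in males was −0.15 ± 0.08 (SE) for Mafg, −0.27 ± 0.14 for Mllt11 and 0.16 ± 0.07 for Jak1, and 0.00 ± 0.10, −0.06 ± 0.06 and 0.01 ± 0.12 for Epdr1, Trim35 and Creb5. In females it lay between −0.10 ± 0.06 for Trim35 and 0.11 ± 0.12 for Creb5. These values use the genotype contrast and carry no test. Over all 16913 genes, 0 passed for this change by edgeR in either sex, while 2503 in males and 1093 in females had an unadjusted p under 0.05.

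Whether training alone moved the 6 genes was tested within each genotype and sex. Mafg fell in trained TG males, from a mean of 74.9 ± 8.8 CPM (SD, n = 9) in sedentary to 66.2 ± 3.2 CPM (n = 8) in trained hearts. The log2 fold change was −0.18 ± 0.05 (SE, edgeR adjusted p 0.0140), in a comparison in which 17.95% of all genes passed, 1750 higher and 1286 lower. That count of 3036 genes was 1702 without TG trained male replicate 7 and 4061 without TG trained male replicate 4. Among the 6 genes only Mafg passed, a share near that of all genes. Leaving out each of the 17 libraries in turn gave −0.20 to −0.13, with adjusted p of 0.0069 to 0.0466, and the value nearest 0 was that without TG sedentary male replicate 8, at 93.4 CPM the highest. Blood genes were lower in the same comparison, 6 of 8 by edgeR with a median log2 fold change of −1.43, and so were 5 of 10 macrophage and leukocyte markers (median −0.24) and 2 of 9 fibroblast markers (median −0.16). The part of these cells in the fall of Mafg was not tested. The sum of blood genes was 314 to 4653 CPM (median 571) in sedentary and 286 to 577 CPM (median 407) in trained TG males. Without replicate 5 of the sedentary TG males, the highest in blood genes, Mafg was at −0.19 (adjusted p 0.0141). In TG females Mafg was at 0.03 ± 0.06 (adjusted p 1.00). The difference between the training effects of TG females and males was 0.21 ± 0.08 (unadjusted p 0.0087, edgeR adjusted p 0.140), so a difference between the sexes was not shown. In that interaction 0.0% of genes passed (3063 at an unadjusted p under 0.05). In nTG hearts Mafg was at −0.03 ± 0.06 in males and 0.00 ± 0.05 in females (adjusted p 0.980 and 0.993).

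Of the other 5 genes, 0 passed the threshold in any of the 4 training comparisons by edgeR or by DESeq2, at an adjusted p under 0.05, and 3 of these 20 values had an unadjusted p under 0.05. Those were Mllt11 in TG males at −0.22 ± 0.09 (adjusted p 0.0887), Trim35 in TG males at −0.09 ± 0.04 (adjusted p 0.152) and Jak1 in nTG males at −0.10 ± 0.05 (adjusted p 0.812). Without TG trained male replicate 4, Mllt11 and Trim35 passed in TG males, at −0.31 (adjusted p 0.0103) and −0.11 (adjusted p 0.0491). Over all 17 libraries left out in turn, the adjusted p of Mllt11 ran from 0.0103 to 0.225 and that of Trim35 from 0.0491 to 0.367. Epdr1, the gene with the highest genotype difference, was at 0.00 ± 0.07 with training in TG males, with a 95% interval from −0.13 to 0.13, and at −0.03 ± 0.07 in TG females. Creb5 was at 0.02 ± 0.08 in TG males and 0.13 ± 0.09 in TG females (adjusted p 0.921 and 1.00). Training passed for 0.0% of all genes in nTG males (where 999 had an unadjusted p under 0.05 and 4 passed by DESeq2), for 0.148% in nTG females (25 genes, 131 by DESeq2 and 0 with only those groups fitted) and for 0.0% in TG females (606 at an unadjusted p under 0.05, 0 by DESeq2).

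Sex was tested within each genotype, over the mean of sedentary and trained mice. Trim35 was lower in females than in males. The female minus male difference was −0.13 ± 0.03 (log2, SE) in nTG hearts, with an edgeR adjusted p of 0.0037, and −0.19 ± 0.03 in TG hearts, with an adjusted p of 3.61e-05. Group means were 119.9 ± 4.3 and 117.9 ± 7.9 CPM (SD) in sedentary and trained nTG males and 107.4 ± 6.8 and 110.3 ± 5.3 CPM in nTG females. In TG hearts they were 172.2 ± 9.7 and 162.3 ± 9.8 CPM in males and 150.02 ± 12.8 and 143.5 ± 6.7 CPM in females. The other 5 genes did not pass in either genotype. The nearest was Mllt11, at −0.18 ± 0.07 in nTG (adjusted p 0.0898) and −0.14 ± 0.07 in TG hearts (adjusted p 0.267), followed by Epdr1 in nTG at −0.12 ± 0.05 (adjusted p 0.139). Sex passed for 8.53% of all genes in nTG and 5.02% in TG hearts. Library names 1 to 32 are male and 33 to 64 female, so sex and the order of libraries cannot be told apart.

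**Figure D3:**
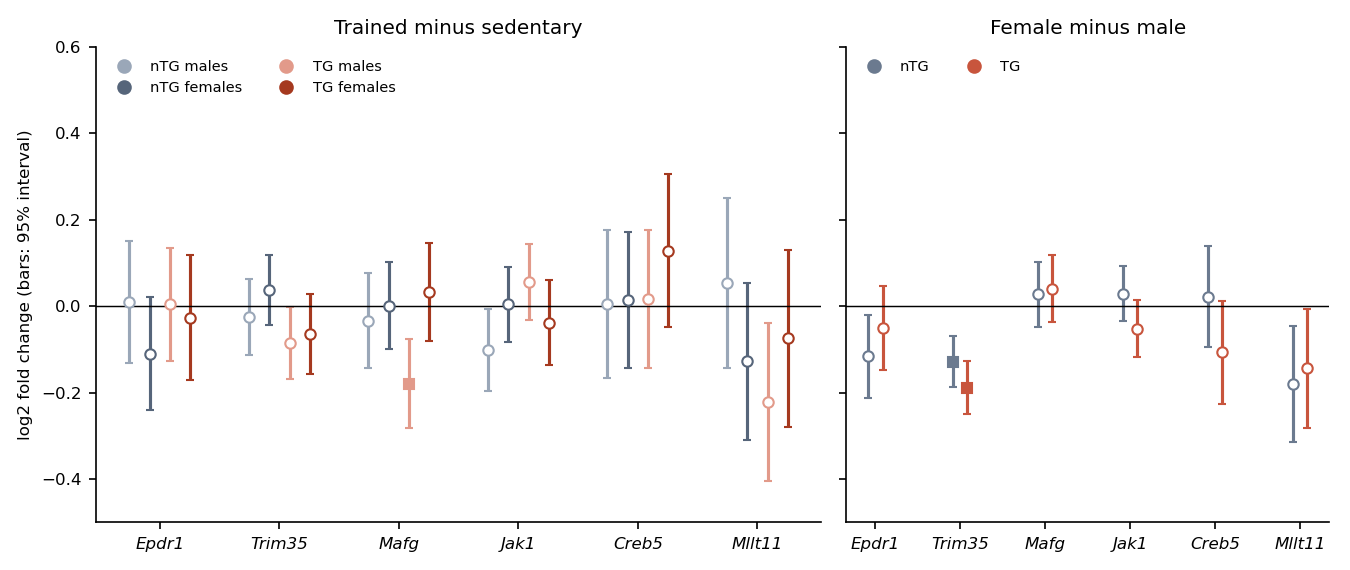
Log2 fold change with 95% interval (bars) of the 6 genes for training in each genotype and sex (left) and for sex in each genotype (right), with filled squares where the edgeR adjusted p was under 0.05 and open circles elsewhere. Mafg in TG males (−0.18) and Trim35 for sex (−0.13 in nTG, −0.19 in TG) are the filled squares.

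The spread of mice around their group mean was used to ask which of the 6 genes vary together, as log2 CPM minus the group mean with values shuffled within groups (two-sided permutation test, 100000 resamples). Over 64 libraries, 2 of the 15 pairs passed by r and by rho. The permutation asks only whether a pair is unrelated within groups. All genes share library depth and tissue composition, so a pass alone does not set a pair apart from other genes. Epdr1 and Jak1 varied together, with r = 0.532 (permutation p 4e-05, adjusted p 6e-04) and rho = 0.526 (permutation p 6e-05, adjusted p 9e-04), and r = 0.557 without the 2 libraries farthest from the median. This pair was at r = 0.555 in males and 0.505 in females. Epdr1 and Trim35 were at r = 0.411 (permutation p 0.0026, adjusted p 0.0196) and rho = 0.359 (permutation p 0.0070, adjusted p 0.0488), with r = 0.353 without the 2 farthest libraries, 0.400 in males and 0.424 in females. The upper end of the central range of all genes, described below, was an r of 0.348 with Epdr1, 0.477 with Trim35 and 0.5002 with Jak1. The r of Epdr1 and Jak1 was above both of its limits. That of Epdr1 and Trim35 was above the limit of Epdr1 but inside the range of Trim35. Jak1 and Creb5 varied in opposite directions at r = −0.315, which did not pass (permutation p 0.0103, adjusted p 0.0517). Mafg passed with none of the others by r, and its highest r was 0.267, with Trim35 (adjusted p of the permutation test 0.146). By rho alone it passed with Mllt11, at rho = 0.333 (permutation p 0.0098, adjusted p 0.0488) against r = 0.206 (permutation p 0.0872, adjusted p 0.163), with an r of −0.07 in males and 0.486 in females.

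The 6 genes were also set against Tnnt2 within the 31 TG libraries, 6 relations in all. Jak1 was at r = 0.472 (permutation p 0.0136, adjusted p 0.0407) and rho = 0.335 (permutation p 0.0798, adjusted p 0.135), and Epdr1 at r = 0.469 (permutation p 0.0106, adjusted p 0.0407) and rho = 0.478 (permutation p 0.0096, adjusted p 0.0575). Neither relation passed by rho, and that of Jak1 rested on few libraries. Without the 2 farthest from the median of Tnnt2, r was 0.230 for Jak1 and 0.359 for Epdr1, and without TG sedentary male replicate 5 it was 0.389 and 0.369, with an adjusted permutation p of 0.146 for each. For Jak1, r was 0.811 in males and −0.01 in females, and for Epdr1 0.593 and 0.317, and the difference between the sexes was not tested. The other 4 genes did not pass in TG hearts. In males and females, their r was −0.768 and 0.230 for Creb5 and −0.677 and 0.509 for Mllt11. It was −0.415 and 0.074 for Trim35 and 0.161 and 0.568 for Mafg, and these differences between the sexes were not tested either. Within the 33 nTG libraries, Mllt11 passed, at r = −0.538 (permutation p 0.0020, adjusted p 0.0122) and rho = −0.434 (permutation p 0.0179, adjusted p 0.108), with −0.475 in males, −0.568 in females and −0.407 without the 2 farthest libraries.

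**Figure D4:**
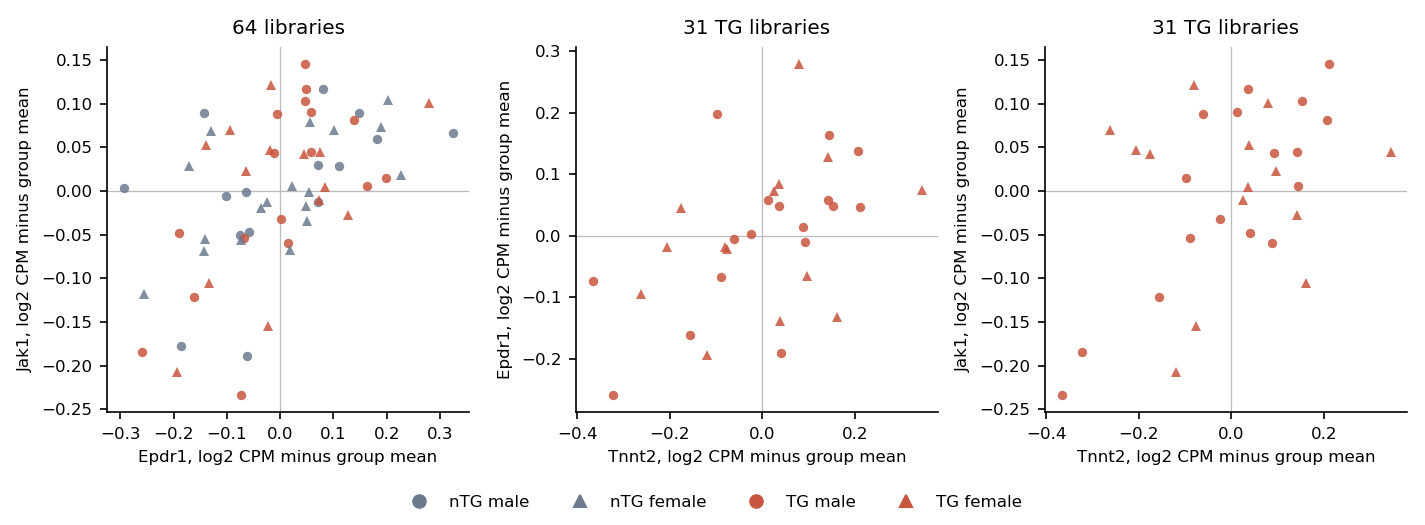
Log2 CPM minus the group mean of Jak1 against Epdr1 over 64 libraries (left, r = 0.532) and of Epdr1 (middle, r = 0.469) and Jak1 (right, r = 0.472) against Tnnt2 over 31 TG libraries, with circles for males and triangles for females. In the right plot the 2 libraries lowest in Tnnt2 are males that are also low in Jak1.

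The genes most like each of the 6 in this spread, over 64 libraries, are a description with no test, and the points share library depth and tissue composition. For Jak1 they were Gtf2i (r = 0.750), a general transcription factor, Dbt (0.750), a subunit of the mitochondrial branched-chain ketoacid dehydrogenase, and Immt (0.747), a protein of the mitochondrial inner membrane. For Trim35 they were Vars (0.683), a valyl-tRNA synthetase, Des (0.682), the muscle intermediate filament desmin, and Tmem127 (0.673). For Epdr1 they were Ogdhl (0.644), Slc9a2 (0.616), a sodium-proton exchanger, and Coq6 (0.603), an enzyme of coenzyme Q synthesis. The genes most like Mllt11 were Tbx15 (0.653), a T-box factor, Amot (0.643), angiomotin, and Xirp2 (0.628), an actin-binding protein of muscle. The genes most like Creb5 were Tnfrsf12a (0.638), the receptor of the cytokine TWEAK, Fat1 (0.635), a protocadherin, and Mgat5b (0.632). The genes most like Mafg were Sac3d1 (0.595), Faap100 (0.569), which lies 246 kb away on the same chromosome, and Rrs1 (0.560), a ribosome assembly factor. The central 95% of all genes ended, at the upper side, at an r of 0.348 with Epdr1, 0.349 with Mllt11, 0.356 with Creb5, 0.369 with Mafg, 0.477 with Trim35 and 0.5002 with Jak1. None of the 18 was picked for its genotype difference, which ran from −0.35 ± 0.06 for Ogdhl to 1.42 ± 0.17 for Tbx15, a gene of 1.26 CPM.

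Hearts of the 2 genotypes also differed in marker genes of other cells. The tissue carried its own markers, since the sum of 10 cardiomyocyte genes was 58815 to 78467 CPM in every library. Of these 10 genes, Tnnt2 was higher in TG hearts by edgeR for the mean of the 4 pairs, 7 were lower and 2 did not pass. All 9 fibroblast markers and all 10 macrophage and leukocyte markers were higher, with a median log2 fold change of 0.40 and 0.38. The counts differed between the pairs, as did those over all genes. In sedentary males 8 of 9 fibroblast and 10 of 10 macrophage and leukocyte markers were higher (medians 0.55 and 0.65), beside 1588 of all 16913 genes. In sedentary females 1 and 0 were higher (medians 0.23 and 0.13), beside 268 of all genes. In trained males and in trained females 5 and 7 were higher, beside 956 and 908 of all genes. The difference between pairs was not tested. For the mean of the 4 pairs, 18.5% of all genes were higher and 20.5% lower. Summed fibroblast markers were 691 to 1595 CPM in nTG and 847 to 1940 CPM in TG libraries, and macrophage and leukocyte markers 224 to 422 CPM and 295 to 517 CPM, so that both sums overlapped between genotypes, and 0 of these 19 markers were missing from the table. Of other marker lists, skeletal muscle had 3 of 4 measured genes higher and 1 lower (median 0.75), and blood 1 of 8 higher and 3 lower (median −0.32). Endothelial markers had 2 of 8 lower, smooth muscle and pericyte markers 1 of 8 lower, atrial markers 1 of 5 higher and mesothelial and epicardial markers 1 of 2 higher. Of 3 adipocyte and 7 neuron and Schwann cell markers, 0 passed.

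Within groups, 12 relations of the 6 genes with these 2 sums were computed over 64 libraries, and 4 passed by r. Jak1 was lower where fibroblast markers were higher, at r = −0.495 (permutation p 3.5e-04, adjusted p 0.0042) and rho = −0.320 (permutation p 0.0166, adjusted p 0.0664), with an r of −0.682 in males, −0.139 in females and −0.359 without the 2 farthest libraries. Mllt11 was at r = 0.378 with fibroblast markers (permutation p 0.0091, adjusted p 0.0273) and Creb5 at 0.343 (permutation p 0.0065, adjusted p 0.0262), and both were lower without the 2 farthest libraries, at 0.219 and 0.195. Trim35 was at r = 0.384 with macrophage and leukocyte markers (permutation p 0.0030, adjusted p 0.0180), and 0.389 without the 2 farthest. By rho, 0 of the 12 passed, with a lowest adjusted permutation p of 0.0664. The part of these cell types in the genotype differences of the 6 genes was not tested.

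The other genes of each system were followed in lists that do not hold the 6 genes, by edgeR for the mean genotype difference over the 4 pairs. The median log2 fold change of all genes was 0.01, and 18.5% of all genes were higher and 20.5% lower. Of 40 JAK-STAT genes, 11 were higher, 6 lower and 23 did not pass, with a median of 0.03. Stat3, the main STAT of the interleukin 6 family, was higher at 0.23 ± 0.03 (SE, adjusted p 1.04e-07), with 154.8 ± 14.5 CPM (SD, n = 33) in nTG and 181.5 ± 19.6 CPM (n = 31) in TG hearts. The interleukin 6 receptor Il6ra was higher at 0.26 ± 0.06 and the interferon receptor subunit Ifnar1 at 0.10 ± 0.02. Cish, a feedback inhibitor that STAT5 induces, was lower at −0.41 ± 0.06 (adjusted p 9.44e-08), with 82.9 ± 15.1 and 61.3 ± 10.5 CPM, and Stat5a itself was lower at −0.18 ± 0.03, as was the interleukin 11 receptor Il11ra1 at −0.14 ± 0.02.

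Of 22 measured small MAF and CNC factors and ARE target genes, 13 were higher, 2 lower and 7 did not pass, with a median of 0.12, where 18.5% of all genes were higher and 20.5% lower. Hmox1, the haem oxygenase, was higher at 0.64 ± 0.07 (SE, edgeR adjusted p 1.82e-10), with 6.36 ± 1.39 CPM (SD, n = 33) in nTG and 10.1 ± 2.4 CPM (n = 31) in TG hearts. Ftl1, the ferritin light chain, was higher at 0.35 ± 0.04, and Srxn1, a sulfiredoxin that restores peroxiredoxins, at 0.33 ± 0.05. All 3 had their highest genotype difference in sedentary males, at 0.97, 0.57 and 0.59, against 0.50, 0.23 and 0.20 in sedentary females, and the difference between the sexes was not tested for them. The CNC factor Nfe2l1 was lower at −0.13 ± 0.02, and Gstm1, a glutathione transferase, at −0.16 ± 0.03. Macrophages also express Hmox1 and Ftl1, and the median sum of macrophage and leukocyte markers was 368 CPM in TG and 291 CPM in nTG libraries. Its part in these values was not tested.

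The remaining lists held called genes in both directions, as did all genes (18.5% higher, 20.5% lower). Of 24 measured CREB and ATF factors and coactivators, 3 were higher and 2 lower, with a median of 0.03. Junb was higher at 0.23 ± 0.06, Jdp2 at 0.14 ± 0.05 and Creb1 at 0.09 ± 0.03, and Atf6, a sensor of stress in the endoplasmic reticulum, was lower at −0.17 ± 0.02, as was Atf5 at −0.15 ± 0.05. Of 38 measured TRIM genes, 5 were higher and 5 lower, with a median of 0.01. Trim47 was higher at 0.22 ± 0.04, Trim16 at 0.19 ± 0.04 and Trim44 at 0.09 ± 0.02, and the muscle ubiquitin ligases Trim63 and Trim55 were lower at −0.18 ± 0.03 and −0.22 ± 0.03, as was Trim68 at −0.13 ± 0.03. Of 22 genes of TCF and beta-catenin signalling, 3 were higher and 5 lower, with a median of 0.01. Apc, Dvl1 and Axin1 were higher at 0.13 ± 0.02, 0.10 ± 0.02 and 0.06 ± 0.02, and Lrp5, Tcf7l2 and Bcl9 were lower at −0.11 ± 0.02, −0.13 ± 0.04 and −0.12 ± 0.04. Of 36 genes of lysosomal lumen and membrane proteins, 12 were higher and 8 lower, with a median of 0.00. Ctsz was higher at 0.29 ± 0.04 and Lamp2 at 0.21 ± 0.03, and Ctsd, Psap and Smpd1 were lower at −0.16 ± 0.02, −0.13 ± 0.02 and −0.14 ± 0.02.

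**Figure D5:**
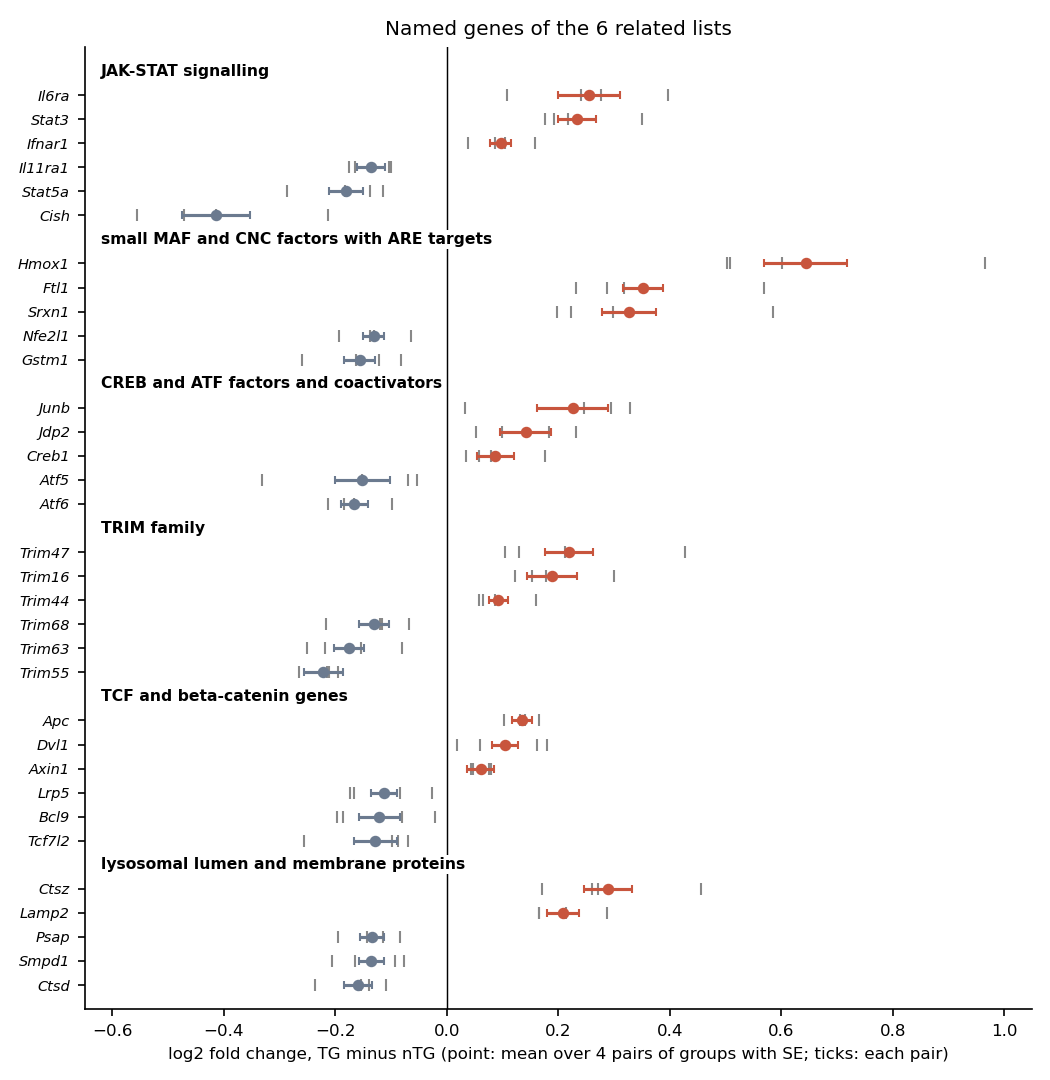
TG minus nTG log2 fold change of the named genes in the 6 related lists (points, mean over the 4 pairs of groups with SE as bars, red above and grey below 0), with the 4 pairs as ticks. Hmox1, at 0.64, is the highest and Cish, at −0.41, the lowest of the genes shown.

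The neighbours of the 6 genes on their chromosomes were called in both directions, and so were 18.5% (higher) and 20.5% (lower) of all genes in the same fit. Within 250 kb of Mafg, 33 genes were measured, of which 2 were higher, 10 lower and 21 did not pass by edgeR for the mean of the 4 pairs, with a median log2 fold change of −0.05. Near Mllt11, 3 were higher and 4 lower of 22, with a median of 0.00. Near Trim35, 0 were higher and 2 lower of 3, and near Jak1, 2 were higher and 1 lower of 5. Near Creb5, 2 of 3 were higher, at 0.18 ± 0.04 for Tril and 0.17 ± 0.06 for Jazf1. Both measured neighbours of Epdr1 were higher, Stard3nl at 0.11 ± 0.04 (adjusted p 0.0382) and Sfrp4, which encodes a secreted inhibitor of Wnt signalling 3.18 kb away, at 0.74 ± 0.16 (adjusted p 1.37e-04). Sfrp4 was low, with a mean of 0.284 CPM.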

How the data were processed

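Total RNA of 64 mouse hearts was sequenced. Per the submitters' processing notes the tools were cutadapt 2.3, FastQC 0.11.8, MultiQC 1.7, STAR 2.7.8a and RSEM 1.3.3, with the builds GRCm38 and mm10. The gene table holds counts per Ensembl gene as the authors deposited them, and the lncRNA table holds expected counts (45 of its 3787 rows have fractions) as deposited. Symbols, positions and exon lengths came from GENCODE M21, which matched 16879 of 16913 genes.

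Gene columns were joined to lncRNA columns by the highest Pearson r over autosomal transcripts (mean count 20 or more), each centred on its mean log2 CPM with pseudocount 0.5, and took the labels of those columns. Tests used edgeR 4.0.16 (quasi-likelihood F test, TMM, 1 mean for each of 8 groups, all libraries, Benjamini-Hochberg adjustment over 16913 genes, threshold 0.05) in R 4.3.3 with limma 3.58.1. The filter on low counts removed no gene. SE is the absolute log2 fold change divided by the root of F. Relations within groups used log2 CPM with a prior count of 2. The 6 genes and all lists were chosen with earlier results of these data known. In each list, up to 3 rising and 3 falling genes are named, by smallest p among called genes, except 1 that is not reported here. The 3 genes most like each of the 6 were taken from genes averaging 50 counts or more. The motifs, the neighbours and the left-out single libraries were added after the values had been seen.

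Alternatives were DESeq2 1.42.0, median-of-ratios size factors, no filter, the replicate number as a block, columns by name, fewer groups and libraries left out. Labels call the libraries biological replicates. The part of depth in the spread between mice was not tested. Tested on simulated counts for training in TG males (16913 genes, 200 changed), edgeR recovered 25%, 81% and 96% of changes of 0.2, 0.5 and 1 log2 units. Of the 50, 171 and 201 calls, 0, 9 and 9 were false. The changed genes averaged 50 counts or more, and each gene was drawn independently. In the real comparison 3036 genes passed and genes vary together, so recovery and false calls there can differ.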

Additional observations from a re-analysis of the deposited data

Results flagged for a closer look

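Of 56 groups of values tested for a single stray library (6 genes and Tnnt2 in 8 groups), 2 held a library whose gap to the others passed Dixon's limit, where chance flags about 1 in 20 groups, or 2.8 of 56. TG trained female replicate 4 had Mllt11 at 6.37 CPM, below the other libraries of its group at 8.05 to 8.89 CPM (n = 6). It was also the TG library with the lowest Jak1, at 193.6 CPM. nTG sedentary male replicate 4 had Tnnt2 at 3589 CPM, above the others of its group at 3155 to 3252 CPM (n = 7).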

How the results depend on the processing

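With DESeq2, size factors by median of ratios, an unfiltered table, the replicate block or with only the groups compared, the training and sex differences of the 6 genes kept their side of the threshold. Their direction was kept too, except for 3 training values near 0 that changed sign under 1 or more of these settings: Mafg and Jak1 in nTG females and Epdr1 in TG males, at −0.0121 to −0.0022 after the change. The genotype differences, which chose the genes, kept their sign, and nothing is read from that. The unfiltered table was identical, since all 16913 genes pass, and fitting only the groups compared gives no other fit for the mean over the 4 pairs. Counts of genes past the threshold changed more. For training they were 0 in nTG males, but 4 with DESeq2, 1 with the replicate block, 1 with only the groups compared and 132 by column names. In nTG females they were 25, but 131 with DESeq2, 13 with median-of-ratios factors, 3 with the replicate block, 0 with only the groups compared, 5 without TG sedentary male replicate 5 and 42 by column names. In TG females the count was 1 with only the groups compared. In TG males it was 1702 (without TG trained male replicate 7) to 4061 (without TG trained male replicate 4) when libraries were left out in turn, and 0 by column names. The genotype count in sedentary females was 739, and 367 with only those groups. The replicate number showed no pairing of sedentary with trained mice of the same genotype and sex. Of 29 such same-numbered pairs, 1 had a correlation over 0.1 (range −0.17 to 0.13). Same-numbered mice of different genotype or sex were not compared. With the block 2940 genes passed in TG males, against 3036.

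Of the 2 relations with Tnnt2 that passed within TG libraries, 0 passed with plain library totals or without TG sedentary male replicate 5, and all 6 computed passed by column names. The relations within nTG libraries and with marker sums were not recomputed under other settings. Of the pairs among the 6 genes, 2 passed, 6 with plain totals and 15 by column names. By column names all 4 genotype counts, their mean and both sex counts were 0, and 18 values reversed. For training these were Trim35 0.47, Mafg 0.57 and Jak1 0.33 in nTG males, Epdr1 0.70 and Mllt11 0.0847 in nTG females, Trim35 0.0901, Mafg 0.0832 and Mllt11 0.0314 in TG males, and Trim35 0.22 in TG females. For sex in TG they were Epdr1 0.11 and Jak1 0.0692. For r they were 0.866, 0.407 and 0.571 for Trim35, Mllt11 and Creb5 with Tnnt2, 0.442 for Epdr1 with Mllt11, 0.509 for Epdr1 with Creb5, 0.281 for Mllt11 with Jak1 and 0.392 for Jak1 with Creb5. By name, groups mix both genotypes and sexes, as the label check shows.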

Other observations

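For training in TG males, the related lists are given beside all genes, of which 17.95% passed by edgeR (1750 higher and 1286 lower of 16913, a count of 3036 that ran from 1702 without TG trained male replicate 7 to 4061 without TG trained male replicate 4), with a median log2 fold change of 0.00. Of 40 JAK-STAT genes 2 were higher and 5 lower, with a median of −0.05. Of 22 small MAF, CNC and ARE genes 0 were higher and 2 lower, with a median of −0.11. The 2 were Ftl1, the ferritin light chain, at −0.32 ± 0.07 (SE, adjusted p 0.0020) and Srxn1, the sulfiredoxin, at −0.34 ± 0.09 (adjusted p 0.0093). Hmox1 was at −0.36 ± 0.14 and did not pass (adjusted p 0.0635). Mafg, whose protein pairs with CNC factors at AREs, was at −0.18 in the same mice, and a link between it and these genes was not tested. Of 24 CREB and ATF genes 2 were higher and 6 lower, with a median of −0.13, among them Creb1, higher at 0.23 ± 0.06 (adjusted p 0.0102), and Junb, lower at −0.41 ± 0.12 (adjusted p 0.0172). Of 38 TRIM genes 1 was higher and 7 lower, with Trim47 at −0.38 ± 0.08 (adjusted p 0.0021). Of 22 TCF and beta-catenin genes 1 was higher and 3 lower, with a median of −0.12, among them Dvl1, lower at −0.16 ± 0.05 (adjusted p 0.0093). Of 36 lysosomal genes 3 were higher and 7 lower, with Lamp2 higher at 0.17 ± 0.05 (adjusted p 0.0261) and Ctsz lower at −0.26 ± 0.08 (adjusted p 0.0228). In the same comparison 2 of 9 fibroblast and 5 of 10 macrophage and leukocyte markers were lower and 0 higher. Blood markers were lower for 6 of 8 (median −1.43), endothelial for 2 of 8 and smooth muscle and pericyte markers for 1 of 8, and 2 of 10 cardiomyocyte and 1 of 7 neuron and Schwann cell markers were higher. The summed macrophage and leukocyte markers were 299 to 517 CPM in sedentary and 297 to 514 CPM in trained TG males, with medians of 429 and 339 CPM, and their part in these values was not tested.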
